A study of Saccharomyces cerevisiae with 167 samples.

Results

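Tandem intergenic regions lie between neighbouring genes that are read in the same direction, so each holds the promoter of the gene that starts there and the 3' end of the gene that finishes there. The members were the intergenic probes named after a systematic open reading frame (ORF) with no number suffix, for which that ORF and the next ORF probe to the right end in the same strand letter. They numbered 2497 of the 5367 probes of this naming form, 1262 with both genes on the W strand and 1235 with both on the C strand, on an array of 13029 probes that also holds 6269 ORF probes. By the same naming 1275 regions were divergent (promoters on both sides) and 1356 convergent (no promoter), and 239 had no class. In the reference annotation R64 the gene upstream of the starting gene was the ORF the name implies for 2088 members, an RNA gene or other feature for 136, another gene in the same direction for 58 and a gene facing the other way for 141. The starting gene was not in R64 for 72 members, and 2 had no neighbour there. A region is called here by the gene that starts at it and then by the gene that ends there.

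The arrays compared Saccharomyces cerevisiae grown at 30 degrees C with cells after heat shock at 39 degrees C, and log phase with stationary phase cells. Myc-tagged histone H4 was taken with an anti-Myc antibody, acetylated H4 with an antibody to acetylated H4, and Myc-tagged Snf2 with the anti-Myc antibody, from formaldehyde-crosslinked chromatin sheared to under 1 kb. For each stress, 3 arrays set stressed against unstressed H4 directly, 3 did so for acetylated H4, 3 arrays per state set each against sonicated genomic DNA, and 3 per state set acetylated H4 against H4 of the same state. Snf2 had 3 arrays at 30 degrees C and 5 after heat shock, for which the labels give no temperature, against input DNA of the tagged cells. A time course after heat shock followed H4 and acetylated H4 in wild-type and snf2 deletion cells at codes T0, T5, T15, T30, T60, T300 and T900 with 2 to 3 sets of arrays per strain and code, and mRNA was compared on 3 arrays for each stress. Cy5 held the stressed or immunoprecipitated material throughout. On the arrays that set stressed against unstressed material directly, a dye effect of a probe therefore cannot be told apart from stress. Beyond the deletion and the tags, the labels used here give no genotype, and nothing in them tells whether replicate arrays were grown as independent cultures, so p-values rest on spread between arrays that may be technical. All values are log2 ratios centred on the median of their array, so a fall at a region is a fall relative to the genome-wide median. The arrays average over a culture, and fewer cells with H4 at a region cannot be told apart from less H4 in each cell.

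As background, DNA in the nucleus is wrapped around histone octamers, and promoters of active yeast genes carry fewer or less stably bound nucleosomes than coding sequence. Acetylation of the H4 tail is a mark found at active promoters, and Snf2 is the ATPase of SWI/SNF, a complex that slides and evicts nucleosomes. After heat shock the activators Hsf1 and Msn2/Msn4 switch on chaperone and general stress genes, while ribosomal protein and ribosome biogenesis genes are repressed.

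Before stress the tandem regions sat between the other classes in acetylated H4. In H4 the ranges of the classes overlapped with the arrays of all 4 states pooled, which does not show their order on single arrays. Against genomic DNA, the median H4 ratio of the tandem regions was -0.08 to 0.01 over the 12 arrays of the 4 states, against -0.09 to 0.02 at divergent and -0.06 to 0.10 at convergent regions. The median acetylated H4 ratio at 30 degrees C was 0.05 to 0.07 at tandem regions, 0.13 to 0.21 at divergent regions and -0.18 to -0.06 at convergent regions on the 3 arrays. The same order held on each log phase array, with 0.09 to 0.13 at tandem, 0.22 to 0.32 at divergent and -0.25 to -0.07 at convergent regions. In stationary phase the classes lay further apart, with tandem medians of 0.11 to 0.19 between divergent medians of 0.35 to 0.50 and convergent medians of -0.32 to -0.22. After heat shock the order was lost, and the tandem medians of 0.03 to 0.07 were no longer below the divergent medians of 0.00 to 0.04. Regions with both genes on W and regions with both on C had nearly equal medians. These levels are descriptions, with no test.

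**Figure D1:**
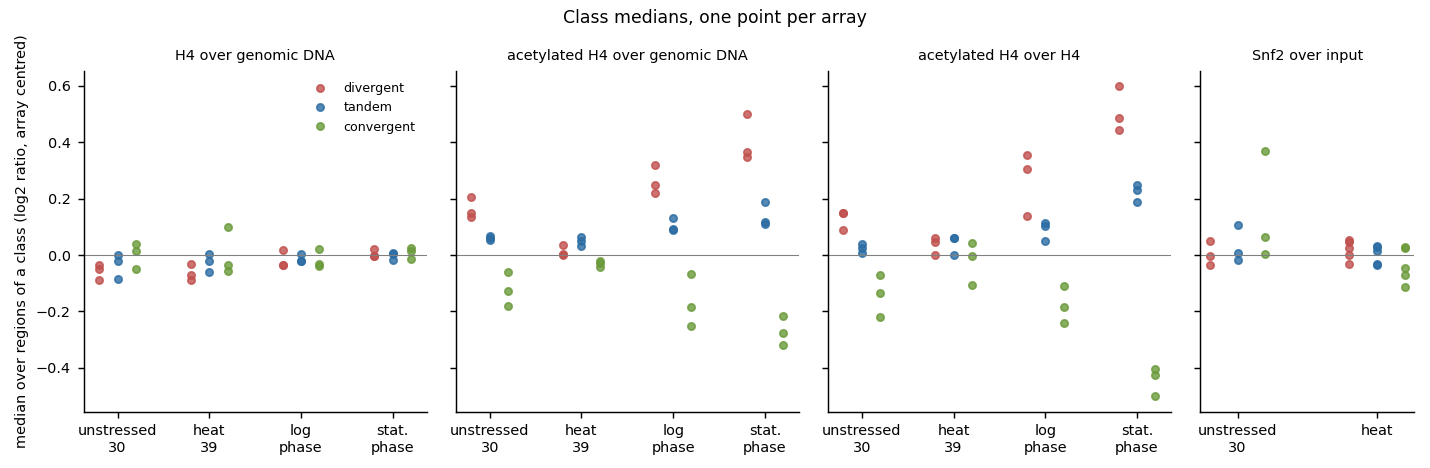
Median log2 ratio over the regions of each class on every array (y axis, array centred), by state (x axis), for H4 over genomic DNA, acetylated H4 over genomic DNA, acetylated H4 over H4, and Snf2 over input. Blue points are tandem, red divergent and green convergent regions, 1 point per array. Tandem points lie between the other classes in the acetylated H4 panels except at 39 degrees C, and all classes lie near 0 for H4.

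Single tandem regions spread far more than their medians. Before stress the lowest H4 was at the regions of SED1, a cell wall glycoprotein gene, with -1.35, -1.49 and -1.52 on the 3 arrays, and of TDH3, the main glyceraldehyde-3-phosphate dehydrogenase gene, with -1.66, -1.38 and -1.18. The highest mean was at HXK2, a hexokinase gene, but its arrays of 1.56, 0.25 and 1.08 disagreed. The lowest acetylated H4 was at YCL074W with -2.30, -2.19 and -2.37 and at YNL337W with -2.26, -2.16 and -2.43, while PAU21, a gene of the seripauperin family, had the lowest acetylated H4 per H4 with -2.09, -2.33 and -1.82. The most Snf2 before stress was at RIO2, a kinase gene of small ribosomal subunit maturation, with 1.37, 1.82 and 1.72. These regions were picked by their rank among all members, so their levels are descriptions.

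Heat shock lowered H4 at the tandem regions of heat shock genes, both where such a gene starts and where it ends. The median member did not move, with a change of 0.00 over all 2497. In limma's moderated test with Benjamini-Hochberg adjustment over all probes (called below an adjusted p of 0.05), 238 members were higher and 321 lower. Of all probes 21.6% were called, 10% higher and 11.5% lower, so the 22.4% of tandem members called is near the background. Of the members, 23 were called with a fall of at least 2-fold and none with a rise of that size. The number called was 262 without set 1, 196 without set 2 and 874 without set 3, whose array shows smaller falls than the others at most of the regions named below.

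At the promoter side, regions where a gene of the chaperone list starts numbered 24, of which 18 were lower, none was higher and 6 were not called, with a median change of -1.03 and a range of -2.18 to 0.05. HSP104, the disaggregase that pulls proteins out of aggregates, read -2.17, -2.54 and -1.84 on the 3 arrays, a fall of 4.54-fold (SE 0.12 on the log2 scale, adjusted p = 0.000128). SSA4, a heat-induced cytosolic Hsp70, read -2.08, -2.01 and -1.70, a 3.81-fold fall (SE 0.08, adjusted p = 6.67e-05). HSP30, a heat-induced plasma membrane protein, read -1.87, -2.02 and -1.66, a 3.61-fold fall (SE 0.08, adjusted p = 6.67e-05). In these genes all arrays are far below 0 and set 3 shows the smallest loss. BTN2, which collects misfolded proteins, read -1.75, -1.87 and -1.44 (SE 0.09, adjusted p = 9.84e-05). HSP78, the mitochondrial relative of HSP104, read -1.57, -1.73 and -1.40 (adjusted p = 9.19e-05). The small heat shock protein gene HSP26 read -1.37, -1.20 and -0.75 and was called at an adjusted p of 0.0019. Further called chaperone promoters were AHA1, an Hsp90 co-chaperone, at -1.54, APJ1, a J-protein gene, at -1.44, and SSA2, a constitutive Hsp70, at -1.24.

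H4 loss did not always go with an mRNA rise of the gene that starts there. CUR1, the BTN2 paralogue, fell by 1.41 in H4 with an mRNA change of -0.29 that was not called. HSP31, a glyoxalase and chaperone gene, had an mRNA rise of 3.13 and an H4 change of -0.14 that was not called. EFB1, which encodes the exchange factor of translation elongation factor 1, read -1.60, -1.59 and -1.54 in H4 (adjusted p = 5.77e-05). Its mRNA change was 0.42, and R64 puts SSA1, an Hsp70 gene facing the other way, next to it, so by that annotation the probe is not a tandem region. The actin gene ACT1, a housekeeping control, read -0.18, -0.06 and 0.00 (adjusted p = 0.362).

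At the 3' side, 20 regions held the end and not the start of a chaperone gene, and 14 of these were lower, 2 were higher and 4 were not called, with a median change of -0.55. CIN2, a tubulin folding factor gene, starts after HSP82, the inducible Hsp90 gene, and its region read -1.90, -1.95 and -1.65 in H4 (SE 0.07, adjusted p = 6.67e-05). HSP82 mRNA rose by 3.47 and CIN2 mRNA changed by -0.25. RTT105, which starts after SSA4, read -1.36, -1.88 and -1.41 (SE 0.10, adjusted p = 0.000322), with an mRNA change of 0.00 against 3.38 for SSA4. SSA4 thus had lower H4 at the region upstream of it and at the region downstream of it.

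Further 3' ends with lower H4 were those of BTN2 (the SKN1 region, -1.50, with an RNA gene or other feature between), of SIS1, a J-protein gene (ASI3 region, -1.24), of HSP78 (RKM4 region, -1.22) and of CPR6, a cyclophilin that works with Hsp90 (CDC123 region, -0.98). SKN1 read -1.70, -1.62 and -1.19, ASI3 -1.39, -1.40 and -0.95, RKM4 -1.29, -1.13 and -1.25, and CDC123 -1.06, -1.03 and -0.83. All of these arrays are below 0, and the mRNA of the gene that starts there changed by -0.58 to 0.03 in these 4 cases. The 2 higher regions follow SSA1 (ERP2, 0.25) and SSB2 (YNL208W, 0.25), and these calls were lost without set 1 and without set 2. Chromatin was sheared to pieces of up to nearly 1 kb, and how much of a value at a 3' end comes from the coding sequence next to it was not tested. The change at a tandem region correlated with that of the ORF that starts there at a Spearman's rho of 0.23 and with that of the ORF that ends there at 0.25, across regions that share the 3 arrays.

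**Figure D2:**
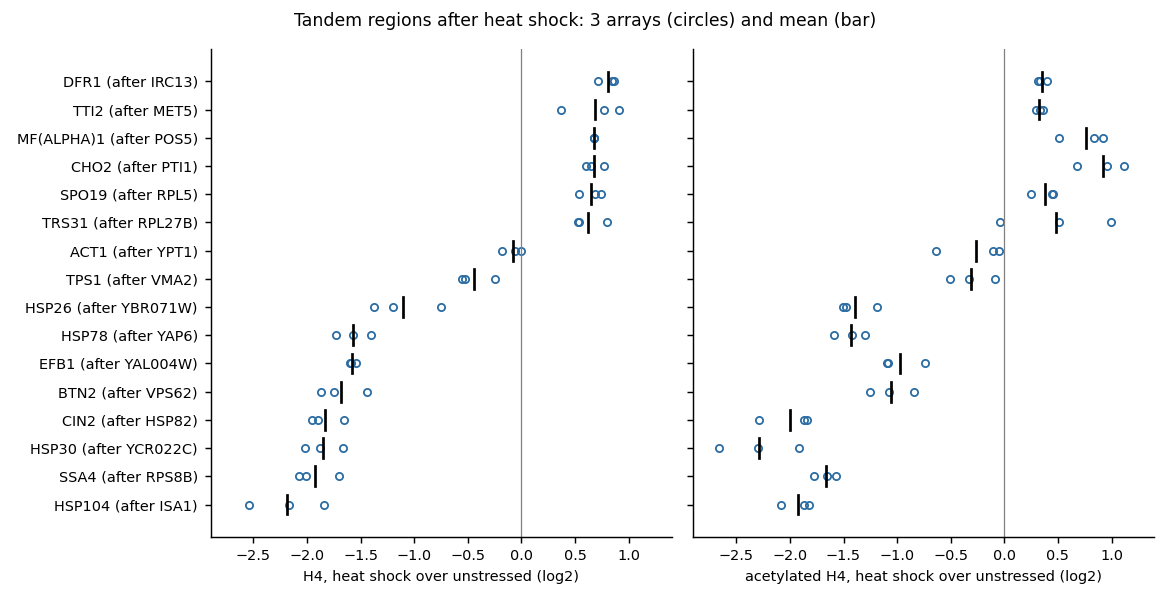
Change in H4 (left) and acetylated H4 (right) after heat shock, as log2 of stressed over unstressed (x axis), for 16 tandem regions named by size or chosen as controls, each labelled by its starting gene and the gene that ends there. Circles are the 3 arrays and bars their mean. The 3 arrays of HSP104, SSA4, HSP30, CIN2 and BTN2 all lie below -0.8 in both panels, and those of DFR1 and CHO2 all lie above 0.

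Other gene groups moved less. Of 14 regions where a general stress gene starts, 11 were lower and none higher in H4 (median -0.46), including ALD3, an aldehyde dehydrogenase gene, with -0.83, -0.82 and -0.88 (adjusted p = 0.000322). TPS1, the trehalose-6-phosphate synthase gene, read -0.53, -0.55 and -0.25, a call that was lost without set 2 (adjusted p = 0.052), and R64 has a gene facing the other way next to it. Of 12 regions where a glycolysis gene starts, 6 were lower and none higher (median -0.27), led by TDH3 with -0.98, -0.72 and -0.86 (adjusted p = 0.000685). Where a large subunit gene starts, 10 of 30 regions were higher and 1 lower (median 0.16), and where one ends, 19 of 34 were higher and none lower (median 0.26). Where a small subunit gene starts, 6 of 20 were higher and none lower (median 0.19), and where one ends, 10 of 17 were higher and 1 lower (median 0.26). NOP12, a ribosome biogenesis gene that starts after RPS15, read 0.58, 0.60 and 0.55 (SE 0.06, adjusted p = 0.00156), with mRNA changes of -1.66 for NOP12 and -2.73 for RPS15. For ribosome biogenesis genes the counts at starts were equal, with 4 of 39 higher and 4 lower. All of these counts stand against the background of 10% higher and 11.5% lower over all probes.

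The largest H4 rises were smaller than the falls. DFR1, the dihydrofolate reductase gene, read 0.72, 0.86 and 0.85 (SE 0.06, adjusted p = 0.000548), and R64 places the RNA gene SNR17A next to it. TTI2 came next by its mean, but its arrays of 0.37, 0.77 and 0.91 lay further apart (adjusted p = 0.00768). MF(ALPHA)1, the alpha factor pheromone gene, whose mRNA fell by 1.93, read 0.68, 0.67 and 0.67 (adjusted p = 0.000766). CHO2, a phosphatidylethanolamine methyltransferase gene, read 0.60, 0.77 and 0.65 (adjusted p = 0.0012). SPO19 follows RPL5, whose mRNA fell by 3.09, and read 0.68, 0.74 and 0.53 (adjusted p = 0.0016). All arrays of these regions are above 0, as their selection required.

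Acetylated H4 fell at chaperone regions and at promoters of genes of ribosome production. Of the tandem members 298 were higher and 385 lower, that is 27.4% against 26.5% of all probes (12.4% higher and 14.1% lower), and 414 were called without set 1. Where a chaperone gene starts 18 of 24 were lower and none higher (median -0.79), and where one ends 11 of 20 were lower and 2 higher (median -0.58). Of the 18 starts called lower in acetylated H4, 15 were among the 18 called lower in H4. HSP30 read -2.30, -1.91 and -2.66 (SE 0.14, adjusted p = 0.000195), HSP104 -1.83, -1.87 and -2.08 (adjusted p = 0.000118), and CIN2, after HSP82, -1.87, -2.29 and -1.84 (adjusted p = 0.000137). All 9 values are below -1.8.

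Of the 39 regions where a ribosome biogenesis gene starts 23 were lower and 1 higher in acetylated H4 (median -0.49), while at the 31 regions where only a gene of this list ends 6 were higher and 5 lower (median 0.01). RRB1, the assembly chaperone of ribosomal protein L3, read -0.93, -1.08 and -1.02 in acetylated H4 (SE 0.09, adjusted p = 0.000705) and 0.29, 0.42 and 0.03 in H4 (adjusted p = 0.0716). The difference between acetylated H4 and H4 at these promoters was not tested here. Of the 20 regions where a translation factor gene starts, 11 were lower and 1 higher (median -0.33), including TIF11, the gene of eIF1A, with -0.86, -0.81 and -0.84 (adjusted p = 0.0012). At ends of such genes 4 of 20 were higher and 1 lower (median 0.18). Large subunit ribosomal protein genes had 10 of 30 starts lower and 1 higher (median -0.22), against 2 of 34 ends lower and 8 higher (median 0.11). RPL37A, beside which R64 has a gene facing the other way, read -0.83, -1.06 and -1.01 (adjusted p = 0.000901). The difference between starts and ends was not tested.

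Among the largest rises of acetylated H4 were those at CUP1-2, a copper metallothionein gene with a near-identical copy, with 1.12, 0.85 and 0.94 (SE 0.10, adjusted p = 0.000918) and an mRNA rise of 3.16, at SPS2, after SPS1, with 1.00, 1.15 and 0.65 (adjusted p = 0.0019), and at CHO2 with 0.68, 1.11 and 0.96 (adjusted p = 0.00158). CHO2 mRNA changed by -0.81.

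Arrays of acetylated H4 against H4 within the same state asked whether acetylation moved beyond H4 itself. Of the tandem members 1 was called, RRB1, against 0.0614% of all probes (0.00768% higher and 0.0537% lower), and 376 had an unadjusted p under 0.05. Counts at an unadjusted p, here and below, are given without the share over all probes. They are therefore no result about the tandem members. RRB1 had 0.66, 0.78 and 0.58 at 30 degrees C and -0.74, -0.14 and -0.45 at 39 degrees C, a change of -1.12 (SE 0.16, adjusted p = 0.0382). Its groups do not overlap, which was a condition for naming the largest rises and falls. The RRB1 call was lost without any 1 of the 3 sets. At CIN2 the arrays had -0.09, 0.08 and 0.23 before and 0.15, -0.02 and 0.36 after heat shock (adjusted p = 0.815), and at HSP104 -0.46, -0.19 and -0.57 before and -0.07, -0.70 and -0.07 after (adjusted p = 0.786). The groups of both regions overlap. Over lists, the median change was 0.08 where a chaperone gene starts, -0.22 where a ribosome biogenesis gene starts, and -0.30 and -0.32 where large and small subunit genes start, against 0.02 over all tandem members.

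The same states measured through genomic DNA gave fewer calls. For H4, 2 members were higher and 3 lower, against 0.307% of all probes called (0.0691% higher and 0.238% lower), and 295 had an unadjusted p under 0.05. SSA4 had 0.06, -0.24 and 0.04 at 30 degrees C and -1.06, -1.77 and -1.32 at 39 degrees C (change -1.33, SE 0.18, adjusted p = 0.0237), and RTT105, at the other end of SSA4, had -0.16, -0.13 and -0.04 and then -1.43, -1.07 and -1.36 (change -1.18, SE 0.14, adjusted p = 0.0107). These groups do not overlap, which was a condition for naming the largest rises and falls. The number of members called was 29 without set 1 and 0 without set 2 or set 3. HSP104 missed the threshold with -1.15 (adjusted p = 0.0715), and set 1 was the lowest of its 39 degrees C arrays at -1.75 against -0.91 and -0.90.

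For acetylated H4 through genomic DNA, 40 members were higher and 93 lower (5.33% of members against 4.94% of all probes, 1.72% higher and 3.22% lower), with 15 called without set 1 and 27 without set 2. HSP30 fell from 0.87, 0.68 and 0.60 to -1.21, -1.22 and -1.59 (change -2.06, SE 0.15, adjusted p = 4.44e-05) and HSP104 from 0.15, 0.06 and -0.46 to -1.86, -1.90 and -2.06 (change -1.86, SE 0.17, adjusted p = 0.000137). At RTT105 the change was -1.52 (SE 0.14, adjusted p = 0.000106). MF(ALPHA)1 went up from -1.15, -1.30 and -0.68 to -0.06, -0.06 and -0.23 (change 0.93, adjusted p = 0.00888). The groups of each of these 4 regions do not overlap, which was a condition for naming the largest rises and falls. The MF(ALPHA)1 call was lost without set 1 and without set 2.

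Because a tandem region adjoins a gene that starts and a gene that ends, its chromatin change can be set against the mRNA of each. The mRNA of 17% of ORF probes was called higher after heat shock and that of 17.6% lower, and the mRNA changes of neighbours were themselves nearly unrelated across the 2495 regions with both ORFs on the array (rho 0.10). The change in H4 was about equally related to both mRNAs, with a rho of -0.21 for the starting gene (single arrays -0.22 to -0.16) and -0.19 for the ending gene (-0.20 to -0.13). The change in acetylated H4 had a rho of 0.16 for the starting gene (0.11 to 0.16) and -0.07 for the ending gene (-0.07 to -0.05), and per H4 it had 0.24 and 0.04. For Snf2 the values were 0.22 and 0.16. These are descriptions across regions that share arrays, and all are weak.

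**Figure D3:**
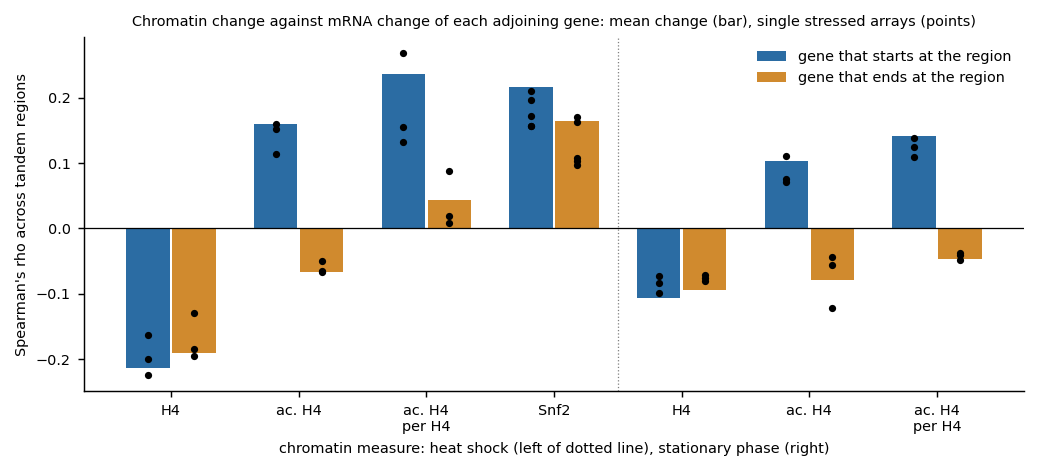
Spearman's rho (y axis) across tandem regions between the change in each chromatin measure (x axis) and the mRNA change of the gene that starts (blue) or ends (orange) at the region, for heat shock left and stationary phase right of the dotted line. Bars use the mean change and black points single stressed arrays. For H4 both bars are below 0 after heat shock (-0.21 and -0.19), while for acetylated H4 the starting gene has 0.16 and the ending gene -0.07.

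Grouping the members by the mRNA calls gave the same picture in units of change. At 281 regions where only the starting gene rose (the other not called), the median H4 change was -0.11, -0.06 and -0.10 on the arrays, and 24.2% of these regions were called lower. At 278 regions where only the ending gene rose, the mean of the array medians was -0.05 ± 0.01 (SD, n = 3) and 23.4% were lower. At 95 regions where both rose it was -0.15 ± 0.02 and 41.1% were lower. At 1057 regions with neither called it was 0.01 ± 0.05 and 8.80% were lower, so an mRNA rise on either side went with a higher share of lower H4 than the 11.5% of all probes. With the mRNA call also required to reach 2-fold, 43.4% of 143 regions with only the starting gene up and 36.3% of 135 with only the ending gene up were lower in H4.

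In acetylated H4 the sides lay apart where mRNA fell. At the 281 regions where only the starting gene fell, the mean array median was -0.12 ± 0.01. Of these 26.3% were called lower, against 14.1% of all probes. At the 261 where only the ending gene fell that mean was 0.07 ± 0.07, and 18.8% were called higher, against 12.4% of all probes. Where the starting gene fell and the ending gene rose, at 71 regions, it was -0.22 ± 0.02. Where only the starting gene rose it was 0.03 ± 0.02 over all such genes but -0.13 ± 0.07 where its mRNA rose at least 2-fold, so the sign depends on that choice. Per H4, the starting gene groups stood at 0.11 ± 0.04 (rose) and -0.07 ± 0.07 (fell), and the ending gene groups both at 0.02. Each per H4 value is a stressed array minus the mean of the unstressed arrays. The per H4 SDs therefore leave out the spread of the unstressed arrays. The groups were compared as descriptions, with no test.

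**Figure D4:**
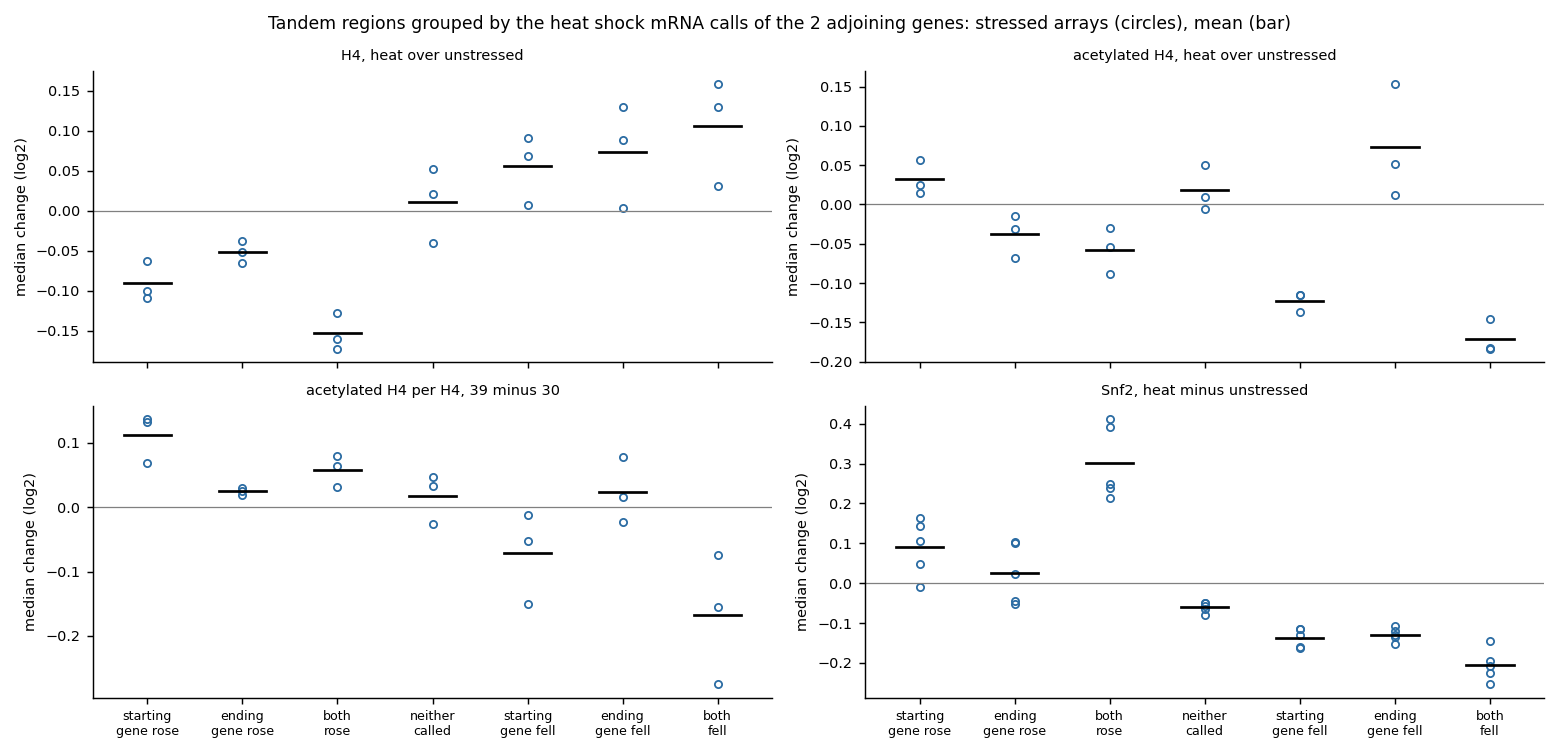
Median change over tandem regions (y axis, log2) on each array after heat shock, for H4, acetylated H4, acetylated H4 per H4 and Snf2, with the regions grouped by the mRNA calls of the adjoining genes (x axis). "Starting gene rose" means that only that gene was called and likewise for the others, circles are arrays and bars their mean. For acetylated H4 per H4 and for Snf2 each circle is a stressed array minus the mean of the unstressed arrays. H4 is lowest where both genes rose (mean -0.15) and acetylated H4 is lowest where both fell (-0.17) among the groups drawn.

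No tandem member was called by limma for Snf2 binding after heat shock. Against 0.0614% of all probes, 0 members passed and 469 had an unadjusted p under 0.05. The share of all probes at that unadjusted p is not given here, so the 469 cannot be read as an excess. This fit did not pair the arrays by set. BTN2 had -0.15, 0.55 and 0.03 on the unstressed arrays and 1.07, 1.15, 1.78, 1.82 and 1.16 after heat shock (difference 1.25, SE 0.24, adjusted p = 0.094). HSP104 had -0.20, 0.34 and 0.66 before and 0.83, 1.26, 1.34, 1.28 and 1.16 after (0.91, SE 0.21, adjusted p = 0.119). In both every stressed array is above every unstressed array. TPS1 had 1.09, 1.82 and 0.59 before and 0.05, 0.47, 0.15, -0.17 and -0.27 after (-1.12, SE 0.27, adjusted p = 0.124), with no overlap in the other direction.

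HSP30, with the third largest H4 loss of its list, had 1.76, 1.93 and 0.26 in Snf2 before and 1.84, 1.23, 0.61, 0.07 and 0.57 after heat shock (-0.45, adjusted p = 0.636), and its arrays overlap. At CIN2 the difference was 0.39 (adjusted p = 0.369). By list the median difference was 0.53 where a chaperone gene starts and 0.15 where one ends, 0.47 and 0.17 for general stress genes, 0.44 and 0.12 for glycolysis, and -0.27 and -0.21 for ribosome biogenesis, against -0.05 over all tandem members. Where both adjoining genes rose in mRNA the medians relative to the unstressed mean were 0.21 to 0.41 over the 5 arrays, and where both fell they were -0.25 to -0.15. Those 2 groups do not overlap on the arrays.

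The time course tracked the same regions in wild-type and snf2 deletion cells. The SNF2 ORF probe, which checks the deletion, read -2.80 to -0.85 (median -1.58) on the H4 arrays of the deletion against -0.12 to 0.42 in wild type, and -3.09 to -1.20 against -1.52 to -0.25 on the acetylated H4 arrays. The T codes carry no unit in the labels. At T300 in wild type 1 member was higher and 4 were lower in H4, against 0.292% of all probes, and none was called at T900, where 69 had an unadjusted p under 0.05. The T0 arrays come from sets 2 and 3 and most later codes also have set 1, so set and time are partly mixed. With the set as a block 17 members were called in wild-type H4 at T300, against 0.799% of all probes. Of these 1 was higher and 16 were lower, with the 5 calls among them. In the deletion 8 members were called, all lower, against 0.307% of all probes. Without the block no member was called there. Every named call of the time course was lost under at least 1 alternative setting.

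BTN2 H4 over genomic DNA in wild type was -0.46 and -1.26 at T0, a mean of -1.34 at T5, -1.80 at T30 and -2.11 at T60, then -2.44, -2.16 and -3.27 at T300 and a mean of -1.96 ± 0.43 (SD, n = 3) at T900. The change at T300 was -1.76 (SE 0.31, adjusted p = 0.00417), and its arrays lie below both T0 arrays. In the deletion it went from -0.42 and -0.37 at T0 to -1.73, -1.63 and -2.28 at T300. RTT105, at the end of SSA4, went in wild type from -0.04 and -0.16 to -2.38, -1.22 and -1.62 (change -1.64, SE 0.34, adjusted p = 0.0211). GSY2, a glycogen synthase gene, changed by -1.16 (SE 0.25, adjusted p = 0.0325) and NIC96, a nucleoporin gene, by 1.02 (SE 0.21, adjusted p = 0.0194).

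HSP104 H4 means were -0.31 ± 0.29 (n = 2) at T0, -1.50 ± 0.47 (n = 3) at T300 and -0.97 ± 0.22 (n = 3) at T900 in wild type. In the deletion they were -0.15 ± 0.69 (n = 2), -1.34 ± 0.35 (n = 3) and -1.25 ± 0.48 (n = 3). At each of these codes the means of the strains differ by less than the larger of their SDs. No tandem member had a different H4 response between strains by the interaction contrast in limma at any code, with 43 at an unadjusted p under 0.05 at T300 and 92 at T900, and no probe of the array was called either. With the set as a block no member was called for this contrast either.

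**Figure D5:**
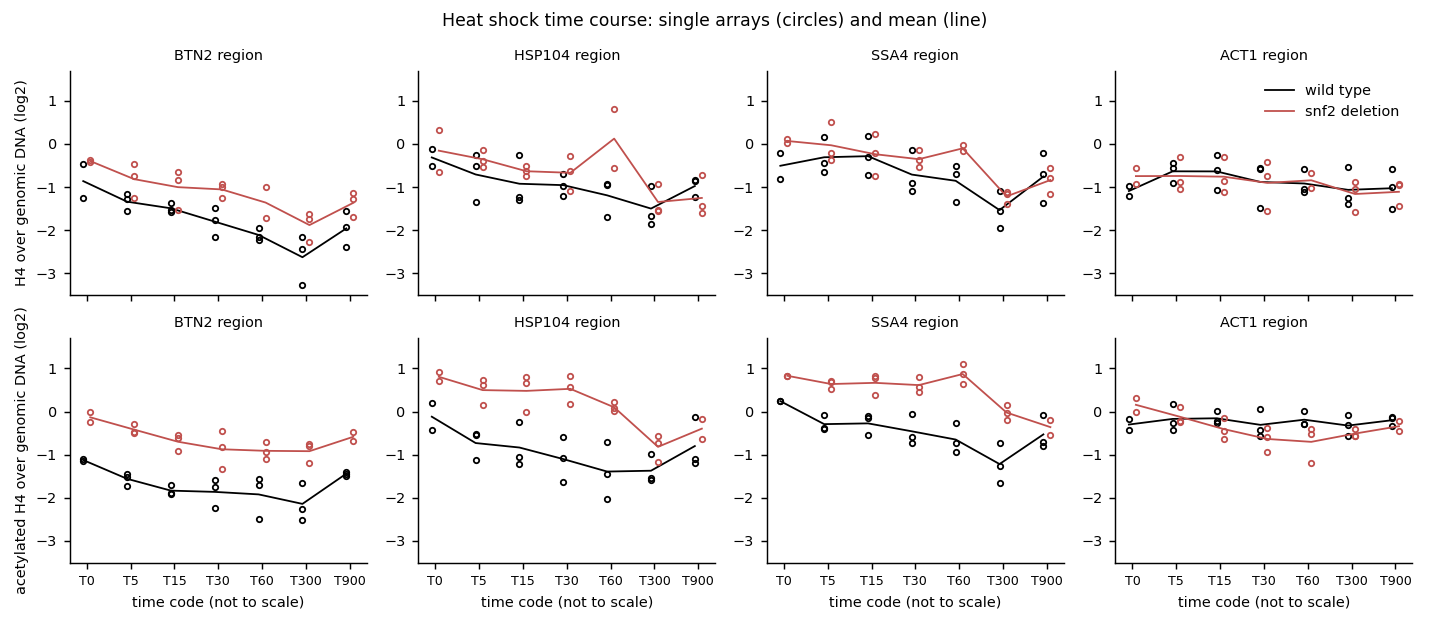
H4 (top) and acetylated H4 (bottom) over genomic DNA (y axis, log2) by time code (x axis, not to scale) at the tandem regions of BTN2, HSP104, SSA4 and ACT1. Circles are single arrays and lines means, black for wild type and red for the snf2 deletion. H4 at BTN2 is lowest at T300 in both strains, and acetylated H4 at HSP104 starts at 0.80 in the deletion against -0.12 in wild type.

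In acetylated H4 some tandem regions were called between the strains before heat shock, at a share near that of all probes. At T0 27 members were higher and 1 lower in the deletion, against 0.998% of all probes called, with a median difference of 0.07 over the members. With the set as a block 71 were higher and 6 lower, against 3.35% of all probes, and all 28 were among them. The split by direction over all probes is not given here. Leaving arrays uncentred moved the median difference of all probes by more than 0.1, from 0.08 to -0.04, and that of the difference in response at T15 from -0.15 to 0.01. TDH3 had 0.50 and 0.00 in the deletion against -1.76 and -1.67 in wild type (1.97, SE 0.30, adjusted p = 0.000669), and SED1 0.76 and 0.31 against -1.55 and -1.12 (1.87, SE 0.33, adjusted p = 0.00274). The 1 lower member, CAL4, differed by -2.3 (limma adjusted p = 0.0186), the largest difference in size among the members called. The deletion arrays of sets 2 and 3 are labelled with genomic DNA of the deletion strain as reference and the others with wild-type DNA. The SNF2 ORF probe nonetheless read -2.58 and -2.88 on the T0 arrays so labelled, and -2.03 to -1.20 on the deletion arrays of set 1, so it goes against the labelled reference, which was not resolved. At T0 strain and labelled reference cannot be told apart. SED1, TDH3, YGR050C and CCW22 were both the 4 lowest members in H4 before stress and among the 6 largest differences here. H4 at T0 had no member called between strains, with 54 at an unadjusted p under 0.05.

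During the course, wild-type acetylated H4 at T300 was lower at SSA4, from 0.24 and 0.25 to -0.74, -1.65 and -1.26 (change -1.46, SE 0.25, adjusted p = 0.0132), and at RTT105 (-1.24, adjusted p = 0.0169), the 2 members called. In the deletion 8 members were lower, including SSA2, from 1.02 and 0.58 to -0.89, -1.01 and -1.15 (change -1.81, SE 0.27, adjusted p = 0.000506), and HSP104, from 0.91 and 0.70 to -1.17, -0.73 and -0.56 (change -1.62, SE 0.36, adjusted p = 0.032). RRB1 changed by -1.22 there (adjusted p = 0.0191). The percentages called over all probes were 0.0614% and 0.392%. With the set as a block 8 members were called in wild type and 21 in the deletion, the 2 and the 8 among them. The percentages over all probes were then 0.338% and 0.929%. No interaction was called at T300 in acetylated H4, with 166 members at an unadjusted p under 0.05, so a difference between these responses was not shown.

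In stationary phase far fewer tandem members were called in H4 than in acetylated H4, as was also so over all probes. In H4 41 of 2497 members were higher and 9 lower, against 2.96% of all probes (2.33% higher and 0.637% lower), but 0 were called without set 1 and 1 without set 2. Of the 24 regions where a chaperone gene starts none was called by limma, with changes of -0.48 to 0.40 and a median of -0.03. HSP104 read 0.07, -0.31 and 0.05 (adjusted p = 0.764) and SSA4 -0.11, -0.01 and 0.15 (adjusted p = 0.968), arrays on both sides of 0. HSP26, whose mRNA rose by 3.90, read -0.49, -0.21 and -0.21 (adjusted p = 0.163).

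The largest H4 rise in stationary phase was at RNH203, a ribonuclease H2 subunit gene, with 1.80, 1.58 and 1.72 (SE 0.09, adjusted p = 0.00696). By the naming RNH203 follows ASP3-1, a repeated asparaginase gene, but R64 has an RNA gene or other feature next to it. YLR162W came next with 1.68, 1.65 and 1.22 (adjusted p = 0.0116), and beside it R64 has the 5S ribosomal RNA gene RDN5-6. Repeats may share hybridisation, and that was not tested. Of the regions at which a large subunit gene ends, 7 of 34 were higher and none lower (median 0.43). TDH1, a glyceraldehyde-3-phosphate dehydrogenase gene whose mRNA rose by 2.61, read -0.74, -0.81 and -0.50 (SE 0.10, adjusted p = 0.0384). For TDH1 R64 has a gene facing the other way next to the start.

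For acetylated H4 in stationary phase 240 members were higher and 187 lower, 17.1% against 20.6% of all probes (8.51% higher and 12.1% lower). Leaving out set 1, 2 or 3 left 190, 138 and 96. The description of these 3 arrays names an anti-Myc antibody although their titles say acetylated H4, and this was not resolved. Of 12 regions where a glycolysis gene starts 7 were higher and none lower (median 0.62), and of the 13 where one ends 1 was higher and 2 lower (median -0.01). ADH1, an alcohol dehydrogenase gene, read 1.08, 0.65 and 1.42 (SE 0.18, adjusted p = 0.0196) with an mRNA change of -2.11, and HXK2 0.84, 1.06 and 0.90 (adjusted p = 0.0142) with an mRNA change of -1.19. Respiration genes had 7 of 31 starts higher and 2 lower (median 0.33).

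Amino acid biosynthesis genes had 2 of 39 starts higher and 9 lower (median -0.02). HIS4, of histidine synthesis, read -1.45, -0.82 and -1.79 (adjusted p = 0.0165) and HIS7 -1.33, -1.29 and -1.87 (adjusted p = 0.0126), while their mRNA changes were 1.22 and 1.00. FUS1, a cell fusion gene of mating, read -1.16, -0.81 and -1.27 (adjusted p = 0.0142), and its mRNA was higher too. In these 3 regions acetylated H4 was lower on every array although mRNA was higher. H4 itself read -0.79, -0.32 and -1.04 at HIS7 and -0.63, -0.21 and -1.40 at FUS1. Neither was called in H4 (limma adjusted p = 0.072 and 0.135), and H4 at HIS4 is not given here. RIO2 read -1.93, -1.88 and -1.66 (SE 0.12, adjusted p = 0.0125), and SCD5, an endocytosis gene, had the largest mean fall with -1.44, -2.75 and -2.20 (SE 0.26, adjusted p = 0.0132). ACT1 read 0.65, 0.62 and 1.14 (adjusted p = 0.0247), so this housekeeping region was not level.

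Per H4, 90 members were higher and 44 lower in stationary phase, 5.37% against 4.91% of all probes (2.28% higher and 2.63% lower), with a median change of 0.15 over members against 0.06 over all probes. GTT2, a glutathione transferase gene whose mRNA rose by 3.94, went from -0.08, -0.07 and -0.39 in log phase to 1.20, 1.23 and 0.72 (change 1.23, SE 0.19, adjusted p = 0.038). FUS1 went from -0.69, -0.43 and 0.35 to -2.52, -2.09 and -1.88 (change -1.91, SE 0.30, adjusted p = 0.038) and TPS1 from 0.02, -0.65 and 0.18 to -2.01, -1.74 and -1.39 (change -1.56, SE 0.27, adjusted p = 0.0384). The groups of these regions do not overlap, which was a condition for naming the largest rises and falls. R64 has genes facing the other way beside GTT2 and TPS1. No member stayed called when any 1 set was left out or when arrays were scaled to a common spread. Through genomic DNA limma called 0 members in H4 and 0 in acetylated H4, as it called 0 of all probes (0%), with 246 and 461 members at an unadjusted p under 0.05.

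The relation to mRNA in stationary phase was weaker than after heat shock in H4 and of the same form in acetylated H4. For H4 rho was -0.11 for the starting gene and -0.09 for the ending gene, for acetylated H4 0.10 and -0.08, and per H4 0.14 and -0.05. Of all ORF probes 17.8% were higher and 18.1% lower in mRNA. Unlike the heat shock mRNA calls, these used a spread that differed between ORF probes. At 289 regions where only the starting gene rose, the acetylated H4 medians were 0.19, 0.11 and 0.25 on the arrays and 54 regions were higher. At 292 where only the ending gene rose they were -0.04, -0.02 and 0.05 and 13 were higher. Over all probes 8.51% were called higher in acetylated H4. Per H4 the means were 0.27 ± 0.03 and 0.06 ± 0.04 (SD, n = 3), with 0.17 ± 0.03 at the regions with neither gene called. Each per H4 value is a stationary phase array minus the mean of the log phase arrays. These SDs therefore leave out the spread of the log phase arrays. The difference between the strength of these relations in the stresses was not tested.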

How the data were processed

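The authors deposited 1 table of log2 ratios of Cy5 to Cy3 for 167 arrays of 13029 probes, per the labels and the values. The sources used here do not give scanner settings, background correction or normalization. Scale and centring therefore remain unknown, and the direction follows the dyes in the labels. Medians of the deposited arrays were -0.144 to 0.259, and each array was centred on its own. Precision is limited by how many arrays there are. Members, gene lists (13 lists) and tests were chosen with earlier results of these data known.

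Two-sided moderated tests over all probes came from limma 3.58.1 (R 4.3.3), with Benjamini-Hochberg adjusted p under 0.05 as threshold, on probes with values on at least 2 arrays per group. For mRNA the tests and the adjustment ran over the ORF probes alone. Direct arrays were tested against 0 and other groups by the difference of their means. The time course had 1 mean per strain and code with 1 shared spread, and repeats 2-a and 2-b were averaged. All 2497 members entered every test. The pipeline was tested on simulated data.

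Named regions were the 6 largest called rises and falls per comparison whose arrays all moved 1 way or whose groups were apart, up to 4 per list, and the regions of HSP104, SSA4, HSP12, HSP26, HSP42, HSP78, HSP30, HSP82, CTT1, BTN2, TPS1, ACT1 and RPL3 where these are members. The ends of chaperone genes, the mRNA groups and the members singled out beside them were chosen after their values were seen. Regions were matched to R64 by name, and no coordinates or sequences are printed, since the files name no build. As a check of placement, H4 change after heat shock at 2491 members correlated (Pearson) with that of the ORF on either side at 0.43 and 0.44, and of the ORF further left at 0.12.

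Set numbers of the labels were taken as pairing where every pair of deviations correlated above 0.1, which held for Snf2 alone (0.106 to 0.192). The Snf2 p-values given above nonetheless come from the fit without this pairing, with the set as a block as an alternative. Time course results are given with the set as a block as well. Replicate arrays correlated at 0.59 to 0.79 for H4 and 0.61 to 0.79 for acetylated H4 after heat shock, and at 0.45 to 0.49 and 0.63 to 0.66 in stationary phase. Alternatives were no centring, scaling to a common spread, robust eBayes, complete probes, set as a block, each set left out, strand from the name's strand letter, R64 neighbours only, and a 2-fold mRNA rule. Some results are not reported here.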

Additional observations from a re-analysis of the deposited data

Results flagged for a closer look

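In 5 of the 72 tandem regions checked on the 5 Snf2 arrays after heat shock, 1 array stood far from the other 4. By chance about 1 in 20 groups would show this. RPA135, a subunit gene of RNA polymerase I, read -0.0215 on set 1 against 0.39 to 0.51 on the others. PRE8, a proteasome subunit gene, read 1.16 on set 2 against -0.33 to -0.19. PYK2, a pyruvate kinase gene, read -0.17 on set 1 against 0.41 to 0.59. YAR068W read -0.31 on set 2 against -0.75 to -0.63. CAL4 read 7.10 on set 4 against -0.20 to 1.47. None of these regions was called for Snf2.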

How the results depend on the processing

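With each set left out in turn, members called ranged from 196 to 874 for H4 after heat shock (559 with all sets), 414 to 874 for acetylated H4 (683), 0 to 44 for H4 in stationary phase (50), 96 to 190 for acetylated H4 (427), 0 to 29 (5) and 15 to 157 (133) for H4 and acetylated H4 through genomic DNA after heat shock, 0 (1) and 0 (134) for acetylated H4 per H4 in heat shock and stationary phase, 0 to 2 (0) and 0 (1) for wild-type H4 and acetylated H4 at T900, 0 to 3 (1) for deletion acetylated H4 and 0 to 1 (0) for the interaction in acetylated H4 at T900. Without centring the counts were 8, 2, 80, 5 and 2, and scaled to a common spread 24, 3, 0, 4 and 0, for H4 through genomic DNA, acetylated H4 per H4 after heat shock, the same in stationary phase, and wild-type and deletion acetylated H4 at T900. Scaling gave 2 for Snf2, robust eBayes 2 for acetylated H4 per H4 after heat shock, and R64 neighbours alone 0 for deletion acetylated H4 at T900.

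The replicate block gave 1 for H4 through genomic DNA and 2 for acetylated H4 per H4 after heat shock. At T900 it gave 1 and 1 for wild-type and deletion H4, against 0.154% and 0.0845% of all probes. For acetylated H4 at T900 it gave 12 and 6, against 0.945% and 0.384% of all probes. It moved no other count of these comparisons by over 1.5 times (T300 and T0 are given above). The Snf2 count, for which sets were taken as pairs, remained at 0. In the time course, deviations of arrays of 1 set correlated at means of 0.09 to 0.41, against -0.28 to -0.04 between sets, but not every pair was above 0.1.

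For H4 through genomic DNA 2 of 5 calls were higher, against 2 of 8 without centring and 14 of 24 scaled, and for wild-type acetylated H4 at T900 0 of 1, against 1 of 5 and 1 of 4. With mRNA calls of at least 2-fold, median H4 after heat shock went to -0.19 (starting gene rose) and -0.12 (ending gene rose), acetylated H4 to -0.13, reversed, and to -0.11 (ending gene rose) and -0.25 (starting gene fell). In stationary phase H4 went to 0.12 and 0.14 and acetylated H4 to -0.0138 and 0.25 where the starting or ending gene fell. The cause was not tested.

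Of 30 named or chaperone-end regions called for H4 after heat shock 25 stayed called under each setting, of 27 for acetylated H4 26, of 12 for H4 in stationary phase 0, and of 15 for acetylated H4 10.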

Other observations

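Of the 3 tandem regions with the least acetylated H4 before stress, 2 were also among the 6 with the highest mean Snf2 after heat shock. YNL337W had 1.32, 1.83, 1.97, 1.74 and 1.53 on the 5 stressed Snf2 arrays and YDR543C 1.32, 1.79, 1.70, 1.46 and 1.23. Both had H4 rises in stationary phase, 0.94 (SE 0.12, limma adjusted p = 0.0299) at YNL337W and 1.24, 0.71 and 1.65 on the arrays at YDR543C (adjusted p = 0.0385), with mRNA changes of 0.09 and -0.07 in their starting ORFs. Neither ORF is in R64.

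DFR1 moved the same way in both stresses. H4 there was higher after heat shock (above) and read 0.76, 0.85 and 0.96 in stationary phase (SE 0.09, limma adjusted p = 0.0234), where acetylated H4 read 1.22, 1.19 and 0.98 (SE 0.12, adjusted p = 0.0126). Before stress its H4 over genomic DNA was -0.91, -0.94 and -0.70, so the region was low in H4. YLR152C, which starts after ACS2, had acetylated H4 of 1.19, 1.29 and 1.13 in stationary phase (SE 0.12, adjusted p = 0.0125), and ACS2, an acetyl-CoA synthetase gene that starts after RNH203, had H4 of 1.21, 1.37 and 0.93 (adjusted p = 0.019). RNH203, ACS2 and YLR152C follow each other in R64. The H4 calls at YNL337W, YDR543C and ACS2 were lost without set 1 and without set 2.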
